A study of Homo sapiens with 9 samples.

Results

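HEK293 cells in which UBE3D had been knocked out and then put back (addback) were compared with wild-type HEK293 cells (WT), gene by gene. HEK293 is an established human embryonic kidney line. The comparison takes all libraries labelled UBE3D addback and all labelled UBE3D WT, 3 of each, so 6 of the 9 libraries of the series. The addback cells carry the CRISPR/Cas9 knockout as well as the added UBE3D, and the WT cells carry neither. The other 3 libraries, from UBE3D knockout cells (KO), are given beside them to show each gene in knockout cells without the added UBE3D. All 9 are poly(A)-selected RNA extracted with TRIzol from cells grown in DMEM with serum. The labels mark every sample as pooled and name no clone, promoter or vector for the added UBE3D, and no group of KO cells with an empty vector is among the 9 libraries. Effects of UBE3D itself and of its delivery therefore cannot be told apart. Nothing in the labels says that the 3 libraries of each kind are separate cultures, and p-values therefore measure a spread that may be technical.

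UBE3D is an E3 ubiquitin ligase, an enzyme that attaches ubiquitin to other proteins, and the study design also looks at transcription running past gene ends, where the endonuclease CPSF3 makes the cut before the poly(A) tail. Many of the named genes below belong to the type I interferon system. In that system, sensors of foreign RNA or DNA lead to interferon release, the interferon receptor activates STAT proteins, and these join IRF9 to switch on a large set of antiviral genes through a promoter element called the ISRE. Others belong to sterol synthesis, whose enzymes are switched on together by the transcription factor SREBP-2 when membrane cholesterol is low.

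Total counts ran from 23088295 to 37508780 per library. Levels are given as scaled CPM, counts relative to each library's size after scaling on well-expressed genes, with libraries in the order of replicates 1 to 3. WT and addback libraries held low counts over nearly all genes of families that kidney cells do not use, such as odorant receptors: 94.8 to 95.7% of 561 such genes had a count, against 13.9 to 17.1% in KO. If those counts covered all coding sequence alike, they would make up 3.09, 8.42 and 15.1% of the WT libraries and 2.85, 11.9 and 11.9% of the addback libraries. The share of counts in these families did not differ detectably between addback and WT (exact permutation test, two-sided p = 0.9, where 3 against 3 libraries cannot go below 0.1). Genes whose estimated background was at most 10% of their mean level over the 6 libraries are called low-background genes below (6127 of 21994 tested). Replicate libraries differed beyond counting noise in each of the 3 groups. All HEK293 markers listed were detected; NEFL, VIM, KRT8 and KRT18, 4 of 9, were called higher in addback, and PAX2, a kidney gene, measured 10.2, 17.7 and 15.8 in WT, 2.75, 2.01 and 3.46 in KO and 10.9, 16.9 and 14.97 in addback. Markers of blood, fibroblast, endothelial, breast and liver cells gave 0 calls between addback and WT. Summed blood markers were 41.2 to 105 scaled CPM in WT and 49.5 to 86.7 in addback.

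The largest difference was in UBE3D itself. UBE3D RNA (chromosome 6, 82892398-83065841, minus strand, hg38) measured 19.5, 21.5 and 26.8 scaled CPM in WT and 3330.3, 3334 and 2794 in addback. The KO libraries held 13.0, 15.5 and 14.3 scaled CPM. All addback libraries lay far above all WT libraries, a 140.5-fold difference (log2 fold 7.13 ± 0.15, standard error from the fit; edgeR quasi-likelihood test, Benjamini-Hochberg adjusted p = 6.77e-05). The exact permutation test of 3 against 3 libraries gave its smallest possible two-sided p, 0.1. CPSF3 RNA (chromosome 2, 9423537-9473110, plus strand) measured 103, 107 and 115 in WT and 109, 112 and 115 in addback. The CPSF3 groups overlapped and the log2 fold was 0.05 ± 0.05 (adjusted p = 0.999, exact permutation p = 0.5).

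Across the transcriptome, 1226 of 21994 genes tested passed an adjusted p of 0.05 between addback and WT (5.57%), 583 higher (2.65%) and 643 lower (2.92%). At a log2 fold of at least 1 in size, 129 genes did so (0.587%). Addback and WT libraries did not overlap in 4603 of the genes tested and in 2996 of the 6127 low-background genes. All 1226 genes called were among the 4603, so groups that lie apart add nothing to a call below. Libraries with the same replicate number deviated together, and blocking on that number gave 3760 calls (17.1%), 1867 higher (8.49%) and 1893 lower (8.61%). Among low-background genes 1030 of 6127 were called (16.8%), 478 higher (7.8%) and 552 lower (9.01%), or with the block 2388 (39.0%), 1119 higher (18.3%) and 1269 lower (20.7%). The call count depends on scaling: TMM factors over all genes gave 196 calls, of which 81.1% were higher against 47.6% here, and DESeq2 with its own size factors gave 361, of which 59.0% were higher. Leaving out WT replicate 1 or 2 left 644 or 689 calls, and leaving out addback replicate 1, 2 or 3 left 533, 475 or 657.

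**Figure D1:**
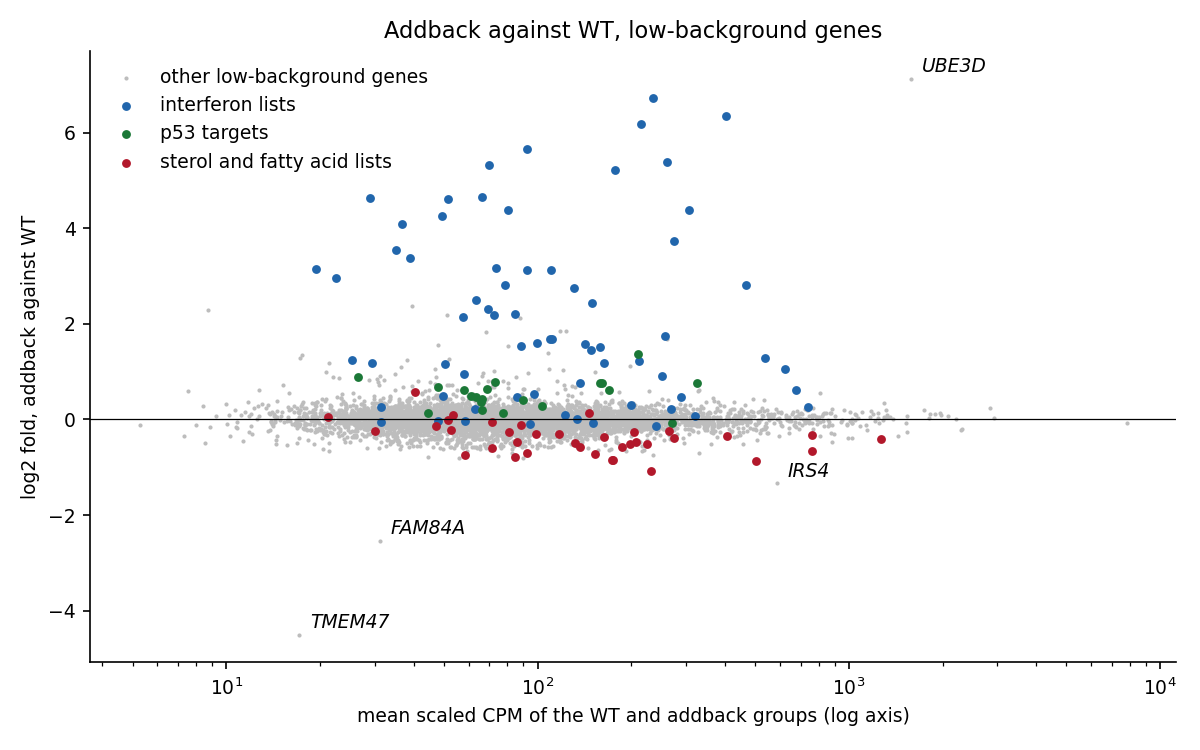
Each point is 1 of the 6127 low-background genes, with the mean level of the WT and addback groups on a log axis against the log2 fold of addback against WT; interferon lists (sensors, signalling, feedback, effectors and class I antigen presentation) are blue, p53 targets green, sterol and fatty acid lists red. UBE3D stands highest at 7.13 and TMEM47 lowest at -4.50; the set is chosen on the mean of both groups, so genes that are high in 1 group enter more easily.

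Many interferon-induced genes stood high in addback. The libraries are bulk RNA, so a higher level in each cell and more cells at a high level cannot be told apart. Interferon-induced effectors are the genes whose products block viral entry, RNA stability, translation and budding. Of 64 effectors tested 46 rose and 0 fell, beside 2.65% of all genes and 7.8% of low-background genes called higher. The median log2 fold of the effectors was 2.19, against 0.01 over all genes tested. With the estimated background subtracted once the median was 2.74, and subtracted a second time 3.79. Without both libraries of replicate 1 or 2, 24 or 16 effectors were called, at medians of 2.01 and 2.33.

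Short stretches of 5 of these promoters are shown because they hold the core that ISRE elements share. Capitals mark GAAANNGAAA or its reverse complement TTTCNNTTTC, searched on both strands, where overlapping matches run together. Sequences are RefSeq's on GRCh38.p14, read 5′ to 3′ on the gene's strand, each with 20 bases on both sides of the outermost matches, and each lies upstream of RefSeq's start site.
IFIT1 (chr10:89392487-89392549, plus strand): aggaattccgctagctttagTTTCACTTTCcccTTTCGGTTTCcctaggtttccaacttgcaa
IFIT3 (chr10:89327821-89327904, plus strand): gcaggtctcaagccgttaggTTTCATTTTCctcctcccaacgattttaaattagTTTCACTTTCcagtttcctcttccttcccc
ISG15 (chr1:1013364-1013419, plus strand): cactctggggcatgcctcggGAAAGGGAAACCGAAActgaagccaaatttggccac
IFI6 (chr1:27672256-27672368, minus strand): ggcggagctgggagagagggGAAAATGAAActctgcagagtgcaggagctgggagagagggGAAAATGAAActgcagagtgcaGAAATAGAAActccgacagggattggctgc
BST2 (chr19:17405725-17405780, minus strand): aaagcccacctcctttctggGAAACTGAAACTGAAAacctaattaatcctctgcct
Within 250 bases before to 50 after the start, this motif stood in 33 of the 47 effectors that have a promoter entry (70.2%) and in 4.26% of the 14921 tested genes with one. It stood in 27 of 37 effectors called higher (73%) and in 6 of 10 not called (60%). Among class I antigen presentation genes 11 of 16 held it (68.8%), among sensors 4 of 9 (44.4%), and among ISG15 conjugation and feedback genes 3 of 8 (37.5%). Of the receptor, STAT and IRF genes 0 of 11 did. A match describes letters in this window and is not a measured binding site.

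The IFIT genes, whose proteins bind foreign RNA ends and block their translation, stood at the top. IFIT1 (chromosome 10, 89392546-89406487, plus strand) measured 8.02, 8.37 and 13.5 scaled CPM in WT and 813, 620.3 and 956 in addback, with 4.83, 4.02 and 4.13 in KO. All addback libraries stood far above all WT libraries, and the log2 fold was 6.35 ± 0.27 (adjusted p = 0.000249). IFIT2 measured 2.82, 4.45 and 6.13 in WT, 465, 314 and 611 in addback and 1.32, 1.22 and 1.36 in KO, the largest fold after UBE3D (6.73 ± 0.37, adjusted p = 0.00054). IFIT3 measured 4.03, 4.88 and 9.31 in WT and 434, 313 and 524 in addback, without overlap (6.17 ± 0.35, adjusted p = 0.000596). IFIT5, the most abundant of the 4 in WT, measured 31.9, 31.7 and 37.7 there and 227, 204 and 251 in addback (2.75 ± 0.10, adjusted p = 0.000209). In all 4 genes addback replicate 2 was the lowest of the addback libraries and replicate 3 the highest, and in all 4 the groups were apart.

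Other effector families moved in the same direction. IFI6, a mitochondrial and endoplasmic reticulum protein with antiviral activity, measured 12.7, 11.8 and 11.9 in WT and 524, 407 and 593 in addback (5.39 ± 0.16, adjusted p = 0.000117). RSAD2, the enzyme viperin that makes a chain-terminating nucleotide, measured 1.44, 3.11 and 6.72 in WT and 175, 112 and 255 in addback (5.66 ± 0.56, adjusted p = 0.00365), and its genomic neighbour CMPK2 5.2, 8.23 and 8.63 and 156, 114 and 192 (4.39 ± 0.27, adjusted p = 0.00079). The groups of all 3 genes were far apart, although the WT libraries of RSAD2 spread widely. OAS3, which makes the antiviral 2-5A messenger, measured 19.9, 32.9 and 31.3 in WT and 596, 428 and 729 in addback (4.38 ± 0.28, adjusted p = 0.000862). Its relatives OAS1 (4.26 ± 0.51, adjusted p = 0.007) and OAS2 (4.65 ± 0.58, adjusted p = 0.00831) rose as well.

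Genes whose proteins act at membranes were among the rising effectors. IFITM1, which blocks fusion of viruses with the cell membrane, measured 2.01, 4.45 and 3.63 in WT, 138, 93.4 and 177 in addback and 1.39, 0.61 and 0.847 in KO (5.33 ± 0.37, adjusted p = 0.00112). IFITM3 measured 5.8, 7.09 and 7.58 in WT and 73.5, 50.2 and 88.6 in addback (3.38 ± 0.24, adjusted p = 0.00123); the IFITM genes are close copies, and how reads shared between them were counted is not given in the sources used here. BST2, or tetherin, which holds budding virus on the cell, measured 1.24, 2.94 and 2.59 in WT and 53.4, 40.1 and 73.8 in addback (4.63 ± 0.39, adjusted p = 0.00237). None of these groups overlapped.

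WT levels of the lowest effectors sit near the library background, which bears on the size of their folds. OAS1 measured 1.84, 5.38 and 7.63 in WT, where the estimated background was 1.42, 4.05 and 7.37, and 89.9, 67.2 and 124 in addback; KO libraries held 0, 0.0717 and 0.077. IFI44L measured 1.78, 2.27 and 8.67 in WT, against an estimated background of 1.2, 3.44 and 6.26, and 94.6, 73.8 and 128 in addback (4.61 ± 0.62, adjusted p = 0.0106). In both genes WT replicate 3, the WT library with the most background, was the highest WT library. IFI44 showed the same order, at 1.58, 2.12 and 8.86 in WT and 67.1, 43.6 and 97.1 in addback (4.09 ± 0.72, adjusted p = 0.0267).

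The effectors that did not pass were 18 of 64. Guanylate-binding proteins, which interferon gamma induces strongly in many cells, were among them: GBP1 had a log2 fold of 0.57 ± 0.64 (adjusted p = 1; with the replicate block, 0.024) and GBP2 one of -0.02 ± 0.77 (adjusted p = 1). CXCL10, a chemokine, measured 1.01, 1.89 and 5.22 in WT and 1.52, 3.44 and 4.97 in addback (0.30 ± 0.78, adjusted p = 1). MX1, a dynamin-like antiviral GTPase, measured 4.5, 14.3 and 11.1 in WT and 10.6, 17.2 and 21.1 in addback, where the groups overlapped (0.71 ± 0.47, adjusted p = 0.718; 0.025 with the replicate block). Its paralog MX2 measured 1.54, 7.88 and 6.45 in WT and 36.4, 29.1 and 55.2 in addback and passed (2.93 ± 0.60, adjusted p = 0.0452), but not with the replicate block (adjusted p = 0.0652). None of the genes named in this paragraph is a low-background gene. Mean levels of GBP1, GBP2, CXCL10 and MX1 were 9.79, 7.72, 2.71 and 9.95 in WT and 0.147, 0.799, 0.0122 and 2.51 in KO. Background may therefore hide a difference in these genes.

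**Figure D2:**
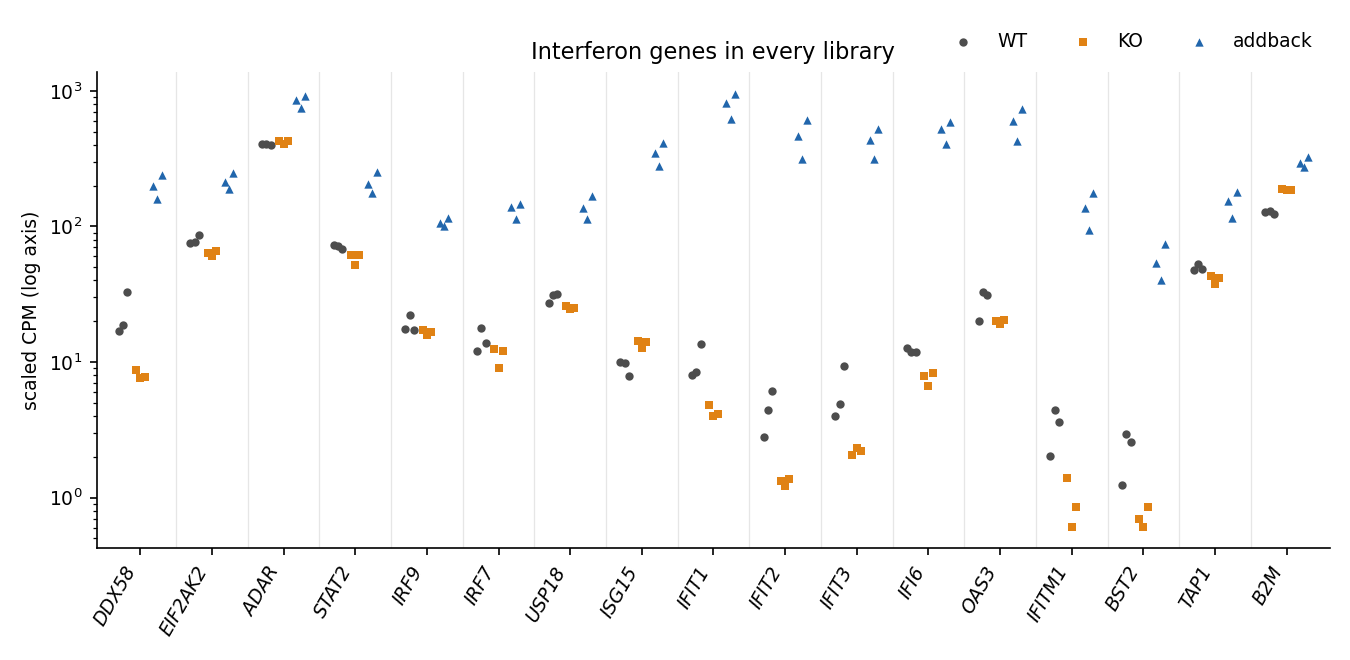
Scaled CPM on a log axis for 17 interferon genes ordered from sensors through signalling and effectors to antigen presentation; each point is 1 library (circles WT, squares KO, triangles addback). All addback libraries lie above all WT and KO libraries in each of the 17 genes.

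Upstream of the effectors, some RNA sensors rose while most adaptors did not pass. Of 14 sensors and adaptors, 5 rose and 0 fell, beside 2.65% of all genes and 7.8% of low-background genes called higher. The median log2 fold of these sensors and adaptors was 0.43. Without both libraries of replicate 1 or of replicate 2, 2 of them rose. DDX58, which encodes RIG-I, the sensor of short double-stranded RNA ends, measured 16.8, 18.6 and 33.1 in WT, 8.75, 7.68 and 7.77 in KO and 198, 159 and 239 in addback (3.14 ± 0.29, adjusted p = 0.00301). Its groups did not overlap, and it lies on chromosome 9, where most low-background genes were lower in addback. IFIH1, the related sensor MDA5, measured 9.73, 12.8 and 28.4 in WT and 108, 88.7 and 136 in addback (2.72 ± 0.41, adjusted p = 0.0161). EIF2AK2, the kinase PKR that stops translation on double-stranded RNA, measured 75.4, 76.5 and 87.0 in WT and 214, 189 and 247 in addback (1.45 ± 0.11, adjusted p = 0.00157). ADAR, the editor that marks cellular double-stranded RNA as self, measured 405, 404 and 395 in WT and 862, 752 and 909 in addback (1.07 ± 0.07, adjusted p = 0.000925). The adaptors MAVS (-0.13 ± 0.05, adjusted p = 0.292) and TMEM173, which encodes STING (0.25 ± 0.09, adjusted p = 0.204), did not pass, and nor did the kinase TBK1 (-0.11 ± 0.13, adjusted p = 1). MYD88, an adaptor of Toll-like receptors, did (1.18 ± 0.14, adjusted p = 0.00683). Among sensors, DHX58 (1.38 ± 0.56, adjusted p = 0.31; 0.0458 with the block), TLR3 (0.62 ± 0.63, adjusted p = 0.979), ZBP1 (0.20 ± 0.85, adjusted p = 1) and MB21D1, which encodes cGAS (-0.18 ± 0.75, adjusted p = 1), did not pass. None of these sensors is a low-background gene. Their mean levels, in that order, were 6.83, 7.24, 4.60 and 2.92 in WT and 1.59, 0.854, 0 and 0.818 in KO. Background may therefore make up much of their WT and addback counts and hide a difference.

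Interferon ligands were low. Of 9 ligand genes 0 passed with edgeR's quasi-likelihood test, and none is a low-background gene. With the replicate block IFNB1 and IFNL1 passed. IFNB1, the type I interferon most cells make, measured 0.436, 0.552 and 1.54 scaled CPM in WT and 1.27, 2.42 and 2.97 in addback (adjusted p = 0.438; 0.0206 with the replicate block), beside estimated backgrounds of 0.483, 1.38 and 2.51 and 0.448, 1.96 and 1.97. It was listed at 0 in all KO libraries. IFNL1, a type III interferon, measured 0.973, 7.09 and 2.68 in WT and 5.09, 8.81 and 8.52 in addback (adjusted p = 0.77; 0.0417 with the block). Both pairs of groups are close to each other or overlap, so a difference in ligand RNA was not established at this depth without the block.

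In the signalling tier, some transcription factors rose and the receptor chains did not pass. Of 16 receptor, JAK-STAT and IRF genes, 6 rose and 0 fell (median log2 fold 0.23), beside 2.65% of all genes and 7.8% of low-background genes called higher. STAT2 measured 73.0, 71.6 and 68.5 in WT, 61.1, 51.7 and 61.2 in KO and 207, 177 and 252 in addback (1.58 ± 0.13, adjusted p = 0.00186). IRF9, its DNA-binding partner, measured 17.6, 22.1 and 17.2 in WT and 107, 101 and 116 in addback (2.504 ± 0.11, adjusted p = 0.000297). Both genes stood apart from WT in every addback library. IRF7, which amplifies interferon production, measured 12.1, 17.9 and 13.8 in WT and 139, 113 and 146 in addback (3.18 ± 0.17, adjusted p = 0.000539), while IRF3, its constitutive relative, did not pass (0.23 ± 0.07, adjusted p = 0.131; 0.00812 with the block), and nor did IRF2 (0.58 ± 0.17, adjusted p = 0.132; 0.0141 with the block) and IRF5 (0.23 ± 0.14, adjusted p = 0.612). The receptor chains IFNAR1 (-0.08 ± 0.04, adjusted p = 0.356) and IFNAR2 (-0.22 ± 0.07, adjusted p = 0.184) and the kinases JAK1 (-0.07 ± 0.04, adjusted p = 0.632) and TYK2 (0.01 ± 0.07, adjusted p = 1) did not pass either; with the block IFNAR2 passed (adjusted p = 0.0311).

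ISG15 and some of the enzymes that attach it to proteins rose. Of 10 feedback and ISG15 conjugation genes 6 rose and 0 fell (median log2 fold 1.71), beside 2.65% of all genes and 7.8% of low-background genes called higher. Without both libraries of replicate 1 or 2, 4 or 3 of the 10 rose. ISG15, a ubiquitin-like modifier, measured 10.0, 9.8 and 7.9 in WT, 14.2, 12.6 and 13.96 in KO and 349, 278 and 413 in addback, far apart (5.22 ± 0.19, adjusted p = 0.000178). UBE2L6, the conjugating enzyme, measured 3.25, 7.47 and 5.86 in WT and 63.5, 48.4 and 82.6 in addback (3.55 ± 0.35, adjusted p = 0.00376). The ligases HERC5 (1.68 ± 0.15, adjusted p = 0.00262) and TRIM25 (1.74 ± 0.11, adjusted p = 0.000753) rose too. USP18, which removes ISG15 and damps the receptor, measured 27.1, 31.4 and 31.9 in WT and 137, 114 and 168 in addback (2.21 ± 0.15, adjusted p = 0.00112), with no overlap. UBA7, the activating enzyme (1.32 ± 0.58, adjusted p = 0.365; 0.128 with the block), and ARIH1, a ligase (0.09 ± 0.04, adjusted p = 0.415), did not pass.

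Many class I antigen presentation genes rose, at smaller folds. Of its 20 genes 13 rose and 0 fell, beside 2.65% of all genes and 7.8% of low-background genes called higher. The median log2 fold of the 20 was 0.57, and TMM factors over all genes gave 7 calls at the same median. Without both libraries of replicate 1 or 2, 5 or 6 were called. B2M, the light chain of class I molecules, measured 127, 131 and 122.8 in WT, 187, 186 and 185 in KO and 296, 272 and 325 in addback (1.23 ± 0.07, adjusted p = 0.000539). TAP1, a subunit of the transporter that brings peptides to class I molecules, measured 47.5, 52.7 and 48.5 in WT and 153, 116 and 179 in addback (1.59 ± 0.16, adjusted p = 0.00366). HLA-B measured 184, 169 and 172 in WT and 334, 294 and 352 in addback (0.90 ± 0.07, adjusted p = 0.00186). The groups of all 3 were apart; the HLA genes are similar to each other and listed on alternative contigs too, so their counts are less certain. PSMB9, an immunoproteasome subunit, had a log2 fold of 1.76 ± 0.48 and did not pass (adjusted p = 0.108; 0.00189 with the block). Of 21 NF-kB genes 0 passed with edgeR's quasi-likelihood test (median log2 fold 0.12), near the 5.57% of all genes called. The block gave 5 higher and 1 lower, beside 8.49 and 8.61% of all genes and 18.3 and 20.7% of low-background genes. The estimated background of the NF-kB genes was high, at a median of 21.4% of the mean level, and 5 of the 21 are low-background genes.

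Many p53 targets rose by smaller amounts. Of 28 such genes 17 rose and 0 fell, with a median log2 fold of 0.51, and with the block 24 rose. Beside them, 2.65% of all genes and 7.8% of low-background genes were called higher, or 8.49 and 18.3% with the block. With TMM factors over all genes 5 of the p53 targets were called and with DESeq2 9, at medians of 0.52 and 0.46. Without both libraries of replicate 1 or 2 the counts were 6 and 4. CDKN1A, the p21 inhibitor of cyclin-dependent kinases, measured 126, 109 and 117 in WT, 235, 179 and 227 in KO and 315, 286 and 306 in addback. The addback libraries were highest and the KO libraries lay between, with log2 folds of 1.36 ± 0.06 for addback against WT (adjusted p = 0.000297), 0.86 ± 0.10 for KO against WT (adjusted p = 0.000601) and 0.50 ± 0.10 for addback against KO (adjusted p = 0.00344). MDM2, the ligase that degrades p53, measured 246, 231 and 246 in WT, 329, 245 and 339.7 in KO and 406, 382 and 439.6 in addback (0.77 ± 0.06, adjusted p = 0.00156). BAX, a pore-forming death protein, measured 129, 114 and 110.0 in WT and 210.5, 196 and 196 in addback (0.77 ± 0.07, adjusted p = 0.00243), and AEN, a nuclease of apoptosis, 126, 113 and 119 and 208, 195 and 203 (0.76 ± 0.05, adjusted p = 0.000877). Addback lay above WT in every library of these 4 genes.

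Many genes of the integrated stress response rose as well. Of 31 ATF4 and unfolded protein response genes 17 rose and 2 fell (median log2 fold 0.37). Beside them, 2.65% of all genes were called higher and 2.92% lower, or 7.8 and 9.01% of low-background genes. For the 31 genes TMM factors over all genes gave 5 and 1 and DESeq2 gave 8 and 1. Without both libraries of replicate 1 or of replicate 2, 3 of the 31 rose. PPP1R15A, the subunit GADD34 that reverses the block on translation, measured 39.3, 43.2 and 40.6 in WT, 87.3, 80.8 and 82.3 in KO and 120.4, 119.9 and 117 in addback (1.54 ± 0.05, adjusted p = 0.000117). DDIT3, which encodes CHOP, measured 8.96, 10.9 and 9.81 in WT, 15.4, 14.9 and 15.8 in KO and 24.7, 25.7 and 24.8 in addback (1.34 ± 0.14, adjusted p = 0.00424). SLC3A2, the shared chain of amino acid transporters, measured 70.0, 72.6 and 68.9 in WT and 151, 155 and 138 in addback (1.07 ± 0.05, adjusted p = 0.000378), and its partner SLC7A5 42.1, 51.0 and 42.2 and 91.3, 91.7 and 83.9 (0.98 ± 0.09, adjusted p = 0.00284). In all 4 the addback libraries were the highest of the groups shown. XBP1, the factor spliced by IRE1 under endoplasmic reticulum stress, rose (0.80 ± 0.06, adjusted p = 0.00163), while the chaperone HSPA5 did not pass (0.03 ± 0.05, adjusted p = 1). The 2 that fell, PSAT1 (-0.15 ± 0.03, adjusted p = 0.0338) and VLDLR (-0.79 ± 0.11, adjusted p = 0.0126), both lie on chromosome 9.

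Immediate early genes, which respond within minutes to many stimuli, gave 12 of 26 higher and 0 lower (median log2 fold 0.61). Beside them, 2.65% of all genes and 7.8% of low-background genes were called higher, or 8.49 and 18.3% with the block. Of the 26 genes 18 were higher with the block, and 4 or 1 without both libraries of replicate 1 or 2. ATF3, a stress-induced transcription factor, measured 29.9, 29.7 and 30.7 in WT, 67.3, 77.3 and 66.9 in KO and 110.4, 100.5 and 109.8 in addback. Its 3 groups were apart from each other, with log2 folds of 1.83 ± 0.05 for addback against WT (adjusted p = 0.000117), 1.23 ± 0.07 for KO against WT (adjusted p = 2.13e-05) and 0.60 ± 0.06 for addback against KO (adjusted p = 0.000928). GADD45A, a growth arrest gene, measured 48.7, 46.3 and 43.4 in WT and 86.8, 88.3 and 84.8 in addback (0.91 ± 0.05, adjusted p = 0.000652). JUN, a component of AP-1, measured 268, 264 and 249 in WT, 402, 473 and 423 in KO and 412, 384 and 383 in addback (0.59 ± 0.04, adjusted p = 0.00154), and there the KO and addback libraries overlapped. FOS (0.45 ± 0.67, adjusted p = 1) and MYC (-0.27 ± 0.19, adjusted p = 0.772) did not pass.

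**Figure D3:**
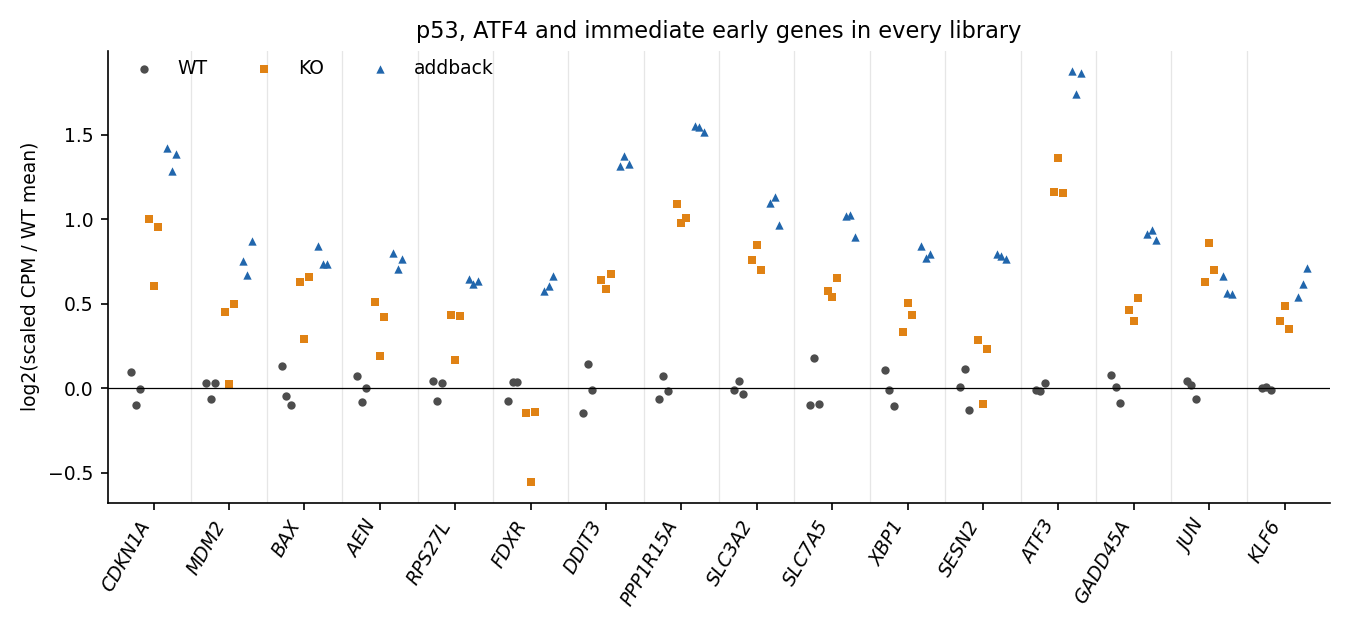
Log2 of scaled CPM over the WT mean for 16 p53, ATF4 and immediate early genes; each point is 1 library (circles WT, squares KO, triangles addback). In each of the 16 genes all addback libraries lie above all WT libraries; KO libraries fall between them in CDKN1A, PPP1R15A and ATF3, overlap addback in JUN, and lie below WT in FDXR.

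Most sterol synthesis genes fell. Of 28 genes of the pathway 18 were lower and 0 higher, beside 2.92% of all genes and 9.01% of low-background genes called lower. The median log2 fold of the pathway was -0.49, against 0.01 over all genes tested. TMM factors over all genes gave 5 lower calls at the same median. Without both libraries of replicate 2, 8 were called. INSIG1, which holds the SREBP carrier in the endoplasmic reticulum and is itself an SREBP-2 target, measured 319, 301 and 326 in WT, 119.5, 103 and 121 in KO and 149, 149 and 148 in addback. WT libraries stood far above both other groups, with log2 folds of -1.08 ± 0.04 for addback against WT (adjusted p = 0.000175), -1.46 ± 0.06 for KO against WT (adjusted p = 9.59e-06) and 0.38 ± 0.06 for addback against KO (adjusted p = 0.00227). HMGCS1, an early enzyme of the pathway, measured 657, 631 and 661 in WT, 302, 266 and 305 in KO and 363, 347 and 364 in addback (-0.86 ± 0.03, adjusted p = 0.000222). Its KO libraries were the lowest, and the groups did not overlap.

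Other steps of the pathway gave like values. ACAT2, which makes acetoacetyl-CoA, the substrate of HMGCS1, measured 229, 221 and 219 in WT and 125, 127 and 121 in addback (-0.84 ± 0.03, adjusted p = 0.000218). IDI1, the isomerase of isopentenyl diphosphate, measured 195, 184 and 191 in WT and 115, 112 and 120.4 in addback (-0.71 ± 0.04, adjusted p = 0.000539). LSS, which closes the sterol rings, measured 233, 225 and 212 in WT, 125, 111 and 118 in KO and 127, 127 and 121 in addback (-0.84 ± 0.04, adjusted p = 0.000439). None of these groups overlapped with WT, and LSS did not pass between addback and KO (0.08 ± 0.05, adjusted p = 0.201). DHCR7, the last enzyme to cholesterol, measured 118, 116 and 111 in WT and 71.7, 70.3 and 70.3 in addback (-0.70 ± 0.04, adjusted p = 0.000409). SREBF2, the gene of SREBP-2, was lower too (-0.38 ± 0.03, adjusted p = 0.00178). PMVK, another enzyme of the pathway, was the 1 member with a fold above 0 and did not pass (0.06 ± 0.11, adjusted p = 1).

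Fatty acid synthesis gave 7 lower and 1 higher of 19 (median log2 fold -0.24), or with the block 11 lower and 3 higher. Beside them, 2.92% of all genes and 9.01% of low-background genes were called lower, or 8.61 and 20.7% with the block. Leaving out WT replicate 2 or addback replicate 2 gave 4 lower of the 19, and TMM factors over all genes gave 0. SCD, the desaturase that makes oleate, measured 951, 923 and 923 in WT, 542, 454 and 559 in KO and 620.2, 572 and 573 in addback (-0.66 ± 0.04, adjusted p = 0.000741). ELOVL5, an elongase, measured 268, 260.1 and 264 in WT, 185, 180.4 and 191 in KO and 184, 182 and 186 in addback (-0.52 ± 0.03, adjusted p = 0.000378). In both genes addback and WT did not overlap, while addback and KO lay close together. FABP5, a fatty acid binding protein, was the member that rose, from 32.4, 32.8 and 32.0 in WT to 51.1, 46.6 and 48.0 in addback (0.58 ± 0.06, adjusted p = 0.0038). Of 11 lipid export genes 1 passed, APOE, beside 5.57% of all genes and 16.8% of low-background genes called. The block gave 3 higher and 1 lower, beside 17.1 and 39.0% called. APOE, which carries cholesterol out of cells, measured 19.8, 19.01 and 16.7 in WT, 52.0, 46.8 and 57.2 in KO and 86.0, 85.7 and 79.4 in addback. Its log2 folds were 2.18 ± 0.08 for addback against WT (adjusted p = 0.000198), 1.49 ± 0.09 for KO against WT (adjusted p = 3.4e-05) and 0.69 ± 0.08 for addback against KO (adjusted p = 0.00166).

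The deepest falls outside lipid synthesis were in genes that were lower still in KO. TMEM47, a membrane protein of cell junctions (chromosome X, 34627064-34657288, minus strand), measured 33.5, 30.3 and 34.9 in WT, 0.403, 0.323 and 0.462 in KO and 1.025, 1.93 and 1.38 in addback, the lowest log2 fold of the low-background genes called (-4.50 ± 0.27, adjusted p = 0.000741). FAM84A measured 54.7, 51.3 and 53.5 in WT, 5.56, 3.37 and 6.23 in KO and 9.19, 9.04 and 9.31 in addback (-2.53 ± 0.07, adjusted p = 0.000117). IRS4, an insulin receptor substrate abundant in HEK293 cells (chromosome X, 108732497-108736377, minus strand), measured 860.0, 813 and 848 in WT, 234, 155 and 241 in KO and 345, 309 and 351 in addback (-1.33 ± 0.06, adjusted p = 0.000234). In these 3 genes every addback library lay above every KO library and below every WT library. Addback against KO gave log2 folds of 1.85 ± 0.27 for TMEM47 (adjusted p = 0.00209), 0.85 ± 0.19 for FAM84A (adjusted p = 0.00539) and 0.67 ± 0.14 for IRS4 (adjusted p = 0.00466). KO libraries held an estimated background of 0 counts per kilobase of coding sequence, and addback libraries 22.6, 107 and 102. The low TMEM47 and FAM84A levels in addback may therefore hold background, which was not subtracted from these folds. POU3F3, a neural transcription factor (-0.80 ± 0.08, adjusted p = 0.00442), and RPRM, a cell cycle arrest gene (-0.78 ± 0.08, adjusted p = 0.00483), were lower as well. NFIB, a transcription factor on chromosome 9, measured 114, 113 and 115 in WT, 77.3, 81.7 and 81.7 in KO and 63.8, 65.3 and 67.6 in addback (-0.80 ± 0.04, adjusted p = 0.000249), and was lowest in addback. Values of KO come from a fit over all 9 libraries, where 62.3% of genes tested were called between KO and WT and 57.1% between addback and KO; TMM factors over all genes would move all KO against WT folds by 0.37 and all addback against KO folds by -0.34 at the median.

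**Figure D4:**
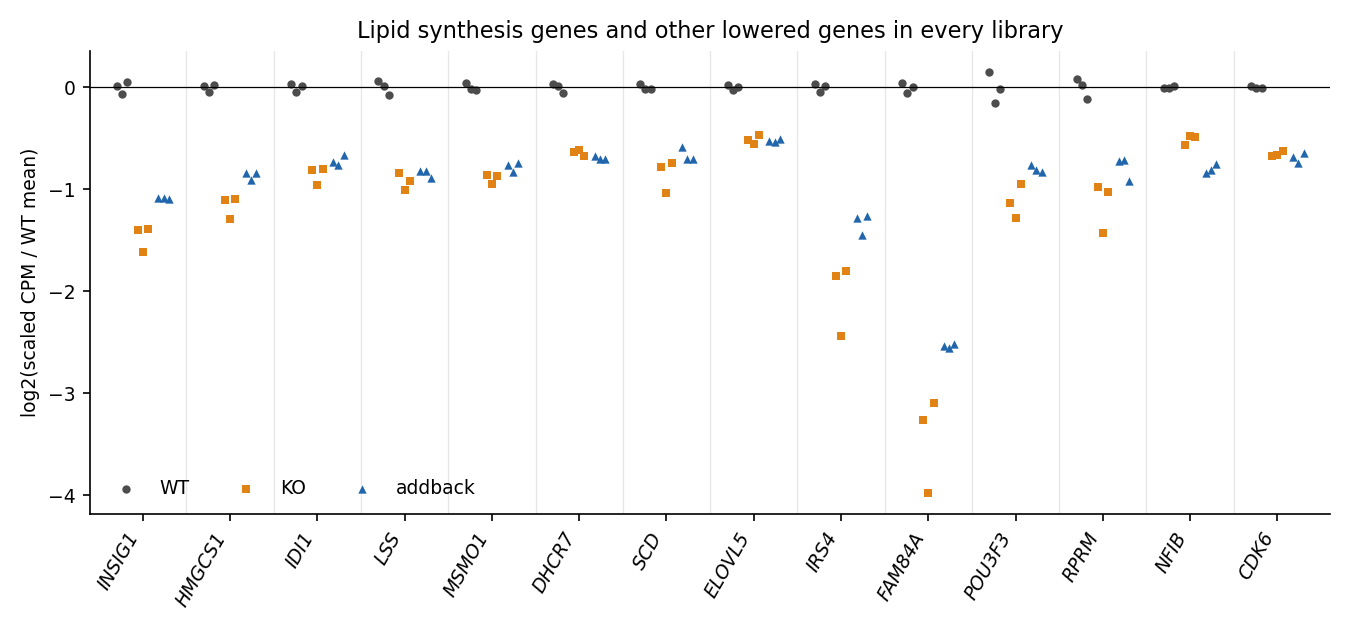
Log2 of scaled CPM over the WT mean for 8 lipid synthesis genes and 6 other lowered genes; each point is 1 library (circles WT, squares KO, triangles addback). All addback libraries lie below all WT libraries; in FAM84A and IRS4 they lie above the KO libraries, in NFIB below them.

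Some structural genes and the linker histone H1F0 were higher in addback than in WT. KRT17, a keratin, measured 11.5, 14.8 and 11.9 in WT, 98.2, 249 and 90.6 in KO and 67.9, 68.5 and 62.0 in addback, with a log2 fold of 2.37 ± 0.12 (adjusted p = 0.000377) and -1.14 ± 0.34 against KO (adjusted p = 0.0202). VIM, the intermediate filament vimentin, measured 663, 657 and 634 in WT, 1274, 1493 and 1222 in KO and 981, 975 and 924 in addback (0.56 ± 0.04, adjusted p = 0.000826; -0.47 ± 0.07 against KO, adjusted p = 0.00204). In both genes addback lay between WT and KO without overlap. Of 28 mesenchymal and invasion genes 6 rose and 1 fell (median 0.34), and of 21 epithelial genes 5 rose and 0 fell (median 0.15). Beside them, 2.65% of all genes and 7.8% of low-background genes were called higher. With the block 11 mesenchymal and invasion genes and 8 epithelial genes rose, and 3 and 0 fell. Block shares were 8.49% higher and 8.61% lower over all genes, and 18.3 and 20.7% over low-background genes. TIMP3, a protease inhibitor, measured 48.2, 48.3 and 47.7 in WT, 104, 134 and 106 in KO and 98.6, 101 and 91.1 in addback (1.01 ± 0.05, adjusted p = 0.000377). H1F0, the linker histone of resting cells, measured 134, 115 and 121 in WT, 287, 225 and 276 in KO and 405, 376 and 407 in addback (1.68 ± 0.07, adjusted p = 0.000224). H1F0 is in none of the lists described and was named outside the rule for named genes. Of 65 replication-dependent histone genes 3 rose (4.62%) and 0 fell, a share near the 2.65% of all genes called higher: HIST1H1C (1.24 ± 0.08, adjusted p = 0.000826), HIST1H2AC (1.46 ± 0.29, adjusted p = 0.039) and HIST1H2BK (0.54 ± 0.05, adjusted p = 0.00237). With the block 7 rose, beside 8.49% of all genes called higher with it. The median over these 65 was -0.11, with 39 below 0, and poly(A) selection captures few of their transcripts.

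Some genes that were low in KO stood at or near the WT level in addback. These come from a list of 42 genes named earlier for KO against WT on these same samples, so the list is no independent evidence. Between addback and WT 18 of its genes were higher, 12 lower and 12 did not pass. For comparison, 2.65% of all genes tested rose and 2.92% fell, and for low-background genes these shares were 7.8 and 9.01%. The list was picked with the same WT libraries, so calls beyond these shares may be partly built in. RAD54L, a DNA repair helicase, measured 73.9, 81.0 and 76.7 in WT, 37.1, 32.3 and 35.6 in KO and 74.1, 79.8 and 78.0 in addback (log2 fold 0.00 ± 0.05, adjusted p = 1). POU3F2, a neural transcription factor, measured 73.1, 76.6 and 74.1 in WT, 32.9, 27.5 and 36.8 in KO and 78.5, 62.9 and 84.6 in addback (0.01 ± 0.11, adjusted p = 1). The WT and addback libraries of both genes overlapped, and the KO libraries were lower than either. ID3, an inhibitor of differentiation factors, measured 42.3, 36.3 and 39.7 in WT, 18.4, 11.2 and 17.0 in KO and 46.0, 47.2 and 48.2 in addback (0.26 ± 0.07, adjusted p = 0.114; 0.0249 with the block). ID2, a relative, measured 60.05, 55.3 and 58.6 in WT, 27.3, 20.3 and 28.7 in KO and 51.0, 47.9 and 54.9 in addback (-0.18 ± 0.07, adjusted p = 0.255; 0.0393 with the block). TEAD2, the partner of YAP on DNA, measured 52.7, 48.4 and 46.8 in WT, 22.4, 18.4 and 24.9 in KO and 42.9, 43.1 and 41.5 in addback (-0.22 ± 0.06, adjusted p = 0.126; 0.0265 with the block). In these 3 genes the addback libraries lay nearer to WT than to KO. A p that misses the threshold does not show that these levels are equal.

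Many of the smaller falls lay on 2 chromosomes. On chromosome 9, 165 of 238 low-background genes were lower in addback and 3 were higher, with a median log2 fold of -0.42. On chromosome 7, 105 of 280 were lower and 8 higher, with a median of -0.22. Together these chromosomes held 270 of the 552 low-background genes called lower (48.9%), but 8.45% of low-background genes and 11 of the 478 called higher. The median over genes elsewhere was 0.01. Relative to the WT mean, the median chromosome 9 gene stood at -0.44, -0.39 and -0.42 by addback library, at -0.44, -0.45 and -0.44 by KO library and at 0.02, 0.01 and -0.04 by WT library. In 10 Mb bins with at least 5 genes, all 11 bins of chromosome 9 had a median below 0, from -0.57 to -0.35, and so did all 15 of chromosome 7, from -0.36 to -0.10. KO against WT gave medians of -0.45 and -0.22 on chromosomes 9 and 7, and addback against KO gave 0.01 and -0.01. Smaller shifts stood elsewhere, to be read beside the 9.01% of all low-background genes called lower and the 7.8% called higher. Chromosome 6 had 57 of 381 genes lower and 28 higher, a median of -0.09, and a median below 0 in 16 of 16 bins. Chromosome 2 had 54 of 418 lower and 19 higher, a median of -0.10, and 23 of 24 bins below 0. On chromosome 14, 27 of 212 genes were higher and 2 lower, at a median of 0.12. DNA copy number was not measured.

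The number of chromosome calls depended on the settings more than the medians did. Over all low-background genes the block gave 20.7% lower and 18.3% higher. For chromosome 9 the lower calls were 212 with the replicate block and 6 with TMM factors over all genes, at medians of -0.42 and -0.41. For chromosome 7 they were 169 and 1, at medians of -0.21 and -0.21. Without WT replicate 1 or 2, chromosome 7 had 53 or 54 lower calls, and without addback replicate 1, 2 or 3 it had 41, 33 or 54. Without addback replicate 1 or 2, chromosome 9 had 108 or 98. Without both libraries of replicate 1, 2 or 3, chromosome 9 had 26, 4 or 125 and chromosome 7 had 6, 2 or 64. DESeq2 gave 47 and 8, at medians of -0.47 and -0.27. The 27 higher calls of chromosome 14 were 73 with the block and 3 with TMM factors over all genes or with DESeq2, where the median was 0.06. Leaving out WT replicate 1 or 2 gave 14 or 13 of them, and leaving out addback replicate 1, 2 or 3 gave 13, 10 or 12.

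**Figure D5:**
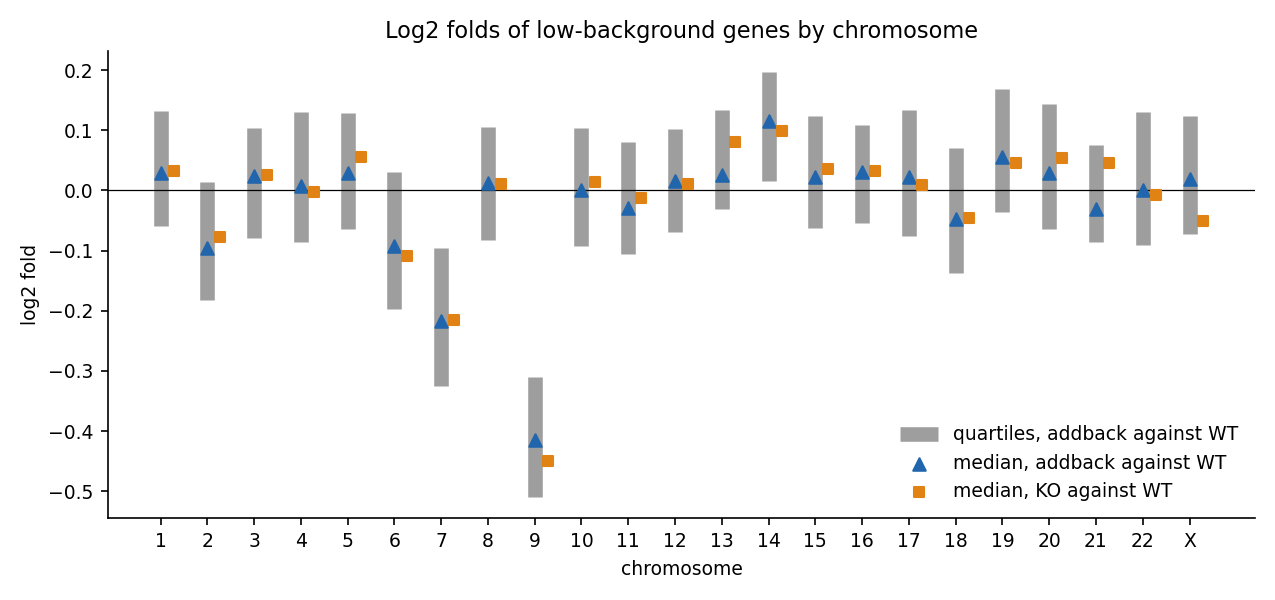
Log2 folds of low-background genes by chromosome; grey bars span the quartiles and triangles mark the median of addback against WT, and squares mark the median of KO against WT. Chromosomes 9 and 7 lie lowest, at -0.42 and -0.22, and the KO medians sit beside those of addback.

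Without the block, few genes of 3′ end formation, the process CPSF3 serves, were called. Shares called ran from 4.17 to 11.8% by list, beside 5.57% of all genes tested and 16.8% of low-background genes. With the block, 17.1% of all genes tested and 39.0% of low-background genes were called. Of 24 cleavage and polyadenylation genes 1 passed (4.17%, beside 5.57% of all genes tested): PPP1CB, a phosphatase subunit, measured 165, 159 and 161 in WT and 182, 181 and 188 in addback (0.19 ± 0.03, adjusted p = 0.0216). With the block 2 rose and 4 fell, and the median over the list was 0.05. NUDT21, the CFIm subunit that steers poly(A) site choice, had a log2 fold of 0.05 ± 0.03 (adjusted p = 0.555). Of 16 Integrator genes, 5 of them low-background, 1 fell (6.25%), INTS1 (-0.42 ± 0.06, adjusted p = 0.0105), which lies on chromosome 7, and with the block 2 fell. Of 17 termination genes TTF2 (-0.36 ± 0.05, adjusted p = 0.0153) and CDK9 (-0.43 ± 0.07, adjusted p = 0.0251) fell, CDK9 on chromosome 9, and with the block 2 rose and 7 fell. Of 10 histone pre-mRNA processing genes NCBP1, on chromosome 9, fell (-0.60 ± 0.07, adjusted p = 0.00779), and with the block 1 rose and 2 fell. Ribosomal protein genes gave 3 higher and 3 lower of 87, at a median of 0.09, and with the block 36 higher and 4 lower.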

How the data were processed

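Deposited values are raw counts per gene and library for 26485 genes, with a gene length in bases; per the submitters' processing notes cutadapt 1.8.1, STAR 2.5.2b, DESeq2 and hg38 were used. No source used here names the counting program, annotation or strand setting. The column prefix KO.U was taken as addback. Genes and lists were chosen with earlier results of these data known.

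Genes were kept by filterByExpr over all 9 libraries, which left 21994. Addback and WT were compared by the edgeR 4.0.16 quasi-likelihood test (R 4.3.3) over their 6 libraries, with Benjamini-Hochberg adjustment over all genes tested and a threshold of 0.05. KO folds came from 1 fit over 9 libraries. Standard errors were taken as the log2 fold over the root of its F statistic. Background was the median count per coding length over tissue-restricted families, and TMM factors were computed on the 6127 low-background genes, whose coding part is at least 10% of exon length (GENCODE 29). Exon length was changed from the listed length to the union of exons after values were seen. Low-background status uses both groups' means, so genes that stand high in addback enter more easily. Same-numbered WT and addback libraries had correlated deviations over all genes tested (0.91, 0.61 and 0.74 for replicates 1, 2 and 3). Over low-background genes these correlations were 0.49, 0.21 and 0.61, and WT 1 with addback 2 gave 0.27. The numbers were treated as pairs in the blocked fit alone. The reported fit has no block, and the blocked fit is an alternative.

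Named genes were UBE3D, CPSF3, the 15 largest and the 15 smallest folds among low-background genes called with no overlap and a mean of at least 5 scaled CPM in the higher group, members of the lists described, and genes named earlier for KO against WT; some listed genes are not reported here. The fit was tested on simulated counts. Alternatives were other scalings, DESeq2 1.42.0, filters, background subtraction, the replicate block and left-out libraries. Count depth limits precision for the lowest genes, and no library was left out of the reported fit.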

Additional observations from a re-analysis of the deposited data

How the results depend on the processing

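The count of genes called between addback and WT was 1226. It was 196 with TMM factors over all genes, 677 with upper quartile factors, 361 with DESeq2, 2069 with all 9 libraries in 1 fit, 2233 with low-background genes alone and 129 with a log2 fold of at least 1 added. Leaving out 1 library gave 475 to 1047 calls, and leaving out both libraries of a replicate number, chosen after seeing the data as were background subtraction with the block and the listed exon length, gave 92 to 672. Pairing by the replicate block gave 3760 calls. Of 132 genes that the naming rule gives and that passed the test, 0 turned direction in the settings that gave a value, 131 also passed with the block (MX2 was the exception) and 39 passed wherever they had a value. All 132 had one in the 21 settings except with low-background genes alone (114) and DESeq2 (130). The median of the interferon-induced effectors was 2.19, and became 2.74 with background subtracted, 3.79 with it subtracted a second time, 2.80 with it subtracted and the replicate block, and 3.14 over low-background genes alone, where 31 of 31 were called; effectors enter that set through their high addback level, so this value is fixed by the choice of genes. Genes with folds near 0 that did not pass changed sign. With DESeq2 CPSF3 was -0.0060, NUDT21 -0.0033, POU3F2 -0.0341 and RAD54L -0.0528. RAD54L was also -0.0083 with upper quartile factors and -0.0026 with scaling on genes low against the lower group. With libraries left out, POU3F2 ran from -0.0825 to 0.1478 and RAD54L from -0.0291 to 0.0378. TMM factors over all genes, which move every KO fold, gave -0.2505 for LSS in addback against KO. The cause of these moves was not tested.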

Other observations

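Further lists held named genes beyond those above. Shares over all genes tested were 2.65% higher and 2.92% lower, and over low-background genes 7.8 and 9.01%. The block gave 8.49% higher and 8.61% lower over all genes, and 18.3 and 20.7% over low-background genes. Of 33 hypoxia and glycolysis genes 4 rose and 1 fell, or with the block 14 and 2. VEGFA, the vessel growth factor, measured 51.8, 49.6 and 53.9 scaled CPM in WT, 65.7, 57.7 and 62.7 in KO and 89.3, 92.8 and 89.2 in addback (0.81 ± 0.05, adjusted p = 0.000579), and ENO2, a glycolytic enzyme, 57.4, 54.5 and 55.7, 66.9, 60.5 and 62.9 and 87.0, 89.8 and 91.2 (0.68 ± 0.04, adjusted p = 0.000639). EPAS1, a hypoxia-inducible factor, was the member that fell (-0.49 ± 0.07, adjusted p = 0.0124). Of 26 collagen and matrix genes 1 rose and 4 fell, or with the block 4 and 7. AGRN, a basement membrane proteoglycan, measured 434, 417 and 406 in WT, 308, 286 and 316 in KO and 591, 529.8 and 579.7 in addback (0.44 ± 0.05, adjusted p = 0.00613), with addback highest and KO lowest. COL6A1 (-0.35 ± 0.05, adjusted p = 0.0116) and COL6A2 (-0.39 ± 0.05, adjusted p = 0.00831), chains of 1 collagen, fell, as did LAMB1 on chromosome 7 (-0.47 ± 0.05, adjusted p = 0.00394). Of 39 cell cycle genes 4 rose and 6 fell, or with the block 7 and 12. Those that fell include CDK6 on chromosome 7 (-0.69 ± 0.04, adjusted p = 0.000454), CDKN2A on chromosome 9 (-0.50 ± 0.05, adjusted p = 0.00405) and MKI67 on chromosome 10 (-0.34 ± 0.04, adjusted p = 0.00893). Heat shock genes gave 1 higher and 1 lower of 20, or with the block 4 and 2. HSPA1A, which has a near-identical neighbour in HSPA1B, measured 61.5, 70.6 and 56.9 in WT and 126, 130.0 and 113 in addback (0.97 ± 0.09, adjusted p = 0.00321).

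Genes outside the low-background set also passed; those here were chosen after their values were seen. BISPR, a long noncoding RNA gene next to BST2, measured 0.369, 0.291 and 0.273 in WT, 0.293, 0.502 and 0.257 in KO and 8.9, 6.23 and 12.3 in addback (4.86 ± 0.54, adjusted p = 0.00479). XAF1, an interferon-induced death factor, measured 0.805, 2.09 and 2.86 in WT and 19.2, 13.3 and 28.98 in addback (3.42 ± 0.56, adjusted p = 0.0216). DHRS2, a reductase, measured 4.73, 7.59 and 6.4 in WT, 30.9, 27.6 and 30.7 in KO and 28.1, 29.2 and 32.0 in addback (2.25 ± 0.21, adjusted p = 0.00291), so KO and addback were alike in range and WT lower. LIF, a cytokine of the interleukin 6 family, measured 3.79, 6.63 and 4.22 in WT, 10.9, 9.54 and 11.2 in KO and 18.7, 18.4 and 22.3 in addback (2.02 ± 0.29, adjusted p = 0.0132). CSF1, the macrophage growth factor, measured 13.2, 18.9 and 15.6 in WT and 40.6, 39.3 and 51.2 in addback (1.46 ± 0.17, adjusted p = 0.00647), and HMOX1, which breaks down heme, 11.1, 15.9 and 11.9 and 26.6, 26.2 and 25.5 (1.01 ± 0.17, adjusted p = 0.022). CRAT, carnitine acetyltransferase on chromosome 9, measured 31.5, 37.5 and 33.3 in WT, 9.41, 6.89 and 8.26 in KO and 11.2, 16.5 and 14.9 in addback (-1.26 ± 0.17, adjusted p = 0.01).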
